A study of Mus musculus with 2 samples.

Results

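The cell cycle and DNA replication genes described here are 36 mouse genes of the dividing cell, measured in ureters of E14.5 embryos with and without Rbpj. They were chosen by name, and all array probes annotated with one of the names were taken, which gave 50 of the 39429 gene probes and 36 of the 30011 gene names. A total of 17 act at the G1/S transition or in DNA synthesis and are called the S-phase members. The other 19 act in G2 or mitosis and are called the mitosis members. Rbpj-cKO embryos carried Tbx18(cre/+);Rbpj(fl/fl), so that Cre was made from the Tbx18 locus, which is active in the ureteric mesenchyme and not in the urothelium. Control embryos carried Rbpj(fl/?), in which the labels leave the second allele open and name no Cre allele. Both were of strain NMRI, and the whole ureter gave the RNA, so that cells outside the Tbx18 lineage were included in every channel.

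Each of the 2 arrays held Rbpj-cKO and control RNA together, labelled in different colours from 150 ng of total RNA. On replicate 1 both RNAs came from male embryos and Rbpj-cKO was red (AlexaFluor647). On replicate 2 both came from female embryos and Rbpj-cKO was green (AlexaFluor555). Sex and dye orientation changed together, so a difference between the arrays that belongs to sex, to dye or to the single pair of RNAs cannot be told apart. The number of embryos behind each RNA is not in the labels, and the spread between the arrays is the only replicate error.

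A dividing cell copies its DNA in S phase and separates the copies in mitosis. The E2F factors switch on the genes of S phase, among them those of the MCM helicase that opens DNA at replication origins, of the sliding clamp Pcna and of the enzymes that make deoxynucleotides. Genes of G2 and mitosis peak later and are controlled through the MuvB complex with B-Myb and Foxm1, which reads a promoter element called CHR, often beside CCAAT boxes bound by NF-Y. Rbpj is the DNA-binding partner of the Notch receptors in the nucleus, and Notch signalling is known to act on proliferation in many embryonic tissues.

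The promoters of S-phase and mitosis members differ in the letters they carry, and 4 of them are printed because their genes are among those followed in detail below. The RefSeq promoter table on build GRCm38.p6 (mouse), which covers 250 bases before to 50 after each start, held a promoter for 28 of the 36 members, 13 S-phase and 15 mitosis members. Ccnd1, Ccne2, Gmnn, Mcm4, Aurkb, Ccna2, Foxm1 and Tpx2 had none. In the first pair, capitals mark the E2F letters TTCCCGC or TTGGCGC on either strand (GCGGGAA and GCGCCAA when read on the other strand). In the second pair, capitals mark the CHR letters TTTGAA or the CCAAT box on either strand (TTCAAA and ATTGG when read on the other strand). No marked letters overlap.
Cdc6 promoter, chr11:98907901-98908200, plus strand: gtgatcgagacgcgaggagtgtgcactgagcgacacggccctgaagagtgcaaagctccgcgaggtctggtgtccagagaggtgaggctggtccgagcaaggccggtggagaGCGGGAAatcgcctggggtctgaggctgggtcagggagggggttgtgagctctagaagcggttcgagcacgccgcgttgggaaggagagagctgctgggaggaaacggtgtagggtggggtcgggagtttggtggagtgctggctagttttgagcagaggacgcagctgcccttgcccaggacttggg
Mcm6 promoter, chr1:128359656-128359955, minus strand: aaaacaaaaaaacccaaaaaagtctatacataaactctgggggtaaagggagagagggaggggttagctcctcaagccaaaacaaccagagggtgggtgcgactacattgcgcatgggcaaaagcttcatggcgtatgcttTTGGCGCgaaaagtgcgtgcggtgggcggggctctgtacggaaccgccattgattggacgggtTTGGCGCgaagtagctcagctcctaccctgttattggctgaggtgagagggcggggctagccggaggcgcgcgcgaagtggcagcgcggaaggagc
Ccnb2 promoter, chr9:70421505-70421804, minus strand: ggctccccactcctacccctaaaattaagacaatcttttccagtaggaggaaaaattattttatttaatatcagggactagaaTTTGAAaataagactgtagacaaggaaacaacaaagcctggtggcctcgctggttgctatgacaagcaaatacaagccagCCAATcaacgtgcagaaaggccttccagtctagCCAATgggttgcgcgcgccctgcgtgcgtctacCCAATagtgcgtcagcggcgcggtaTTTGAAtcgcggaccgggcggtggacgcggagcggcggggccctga
Top2a promoter, chr11:99024140-99024439, minus strand: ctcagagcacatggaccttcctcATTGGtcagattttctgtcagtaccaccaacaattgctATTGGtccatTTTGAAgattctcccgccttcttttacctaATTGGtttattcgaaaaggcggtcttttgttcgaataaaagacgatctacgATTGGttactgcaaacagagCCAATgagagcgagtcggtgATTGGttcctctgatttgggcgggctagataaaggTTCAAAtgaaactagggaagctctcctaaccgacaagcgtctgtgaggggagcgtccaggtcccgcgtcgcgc

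TTTGAA was present in the promoters of 12 of 15 mitosis members and of 1 of 13 S-phase members, Mcm2, against 17.9% of all 32851 promoters in the table. CCAAT was present in 14 of 15 mitosis and 8 of 13 S-phase promoters, against 37.4% of all. All 12 mitosis promoters with TTTGAA also held CCAAT, a combination found in 6.95% of all promoters. Of the E2F letters, TTCCCGCC was present in 2 of 13 S-phase promoters (Mcm3 and Rrm1), in 0 of 15 mitosis promoters and in 2.19% of all. The shorter TTCCCGC or TTGGCGC, searched after those counts were seen, was present in 7 of 13 S-phase promoters, 3 of 15 mitosis promoters and 6.81% of all. A match is a run of letters in the window, not a shown binding site.

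The label checks came out as follows. Rbpj had a processed signal (the scanner software's background-subtracted, dye-normalized intensity) of 831 in Rbpj-cKO and 1851 in control on replicate 1, and of 773 in Rbpj-cKO and 1199 in control on replicate 2. Its log2 ratio of Rbpj-cKO over control was -1.13 and -0.63 at this brighter probe and -0.48 and -0.37 at the dimmer one, and whether a probe lies in the deleted part of the gene is not known here. Its adjusted p was 0.776 (limma, 2 arrays), and the smallest over all 20495 genes tested was 0.254. Tbx18, the locus that carries Cre in Rbpj-cKO, had log2 ratios of 0.17 on replicate 1 and -0.24 on replicate 2. The adjusted p of Tbx18 was 0.99998 (limma). The Y-linked genes Ddx3y and Eif2s3y gave signals of 123 and 218 in female Rbpj-cKO RNA, against 2.12 and 13.6 in female control RNA and 1532 and 2452 in male Rbpj-cKO RNA. The female Rbpj-cKO signal was thus 8.04% and 8.89% of the male Rbpj-cKO signal, and its source was not tested. Xist was well above background in the female channels and not in the male ones. Across all genes the log2 ratios of the arrays, each turned to Rbpj-cKO over control, ran against each other (Pearson r = -0.352, Spearman rho = -0.473). Genes are not independent replicates. Replicate 2, with its female RNA, is therefore given separately from replicate 1 for each gene and list below.

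Of the markers of ureteric cells, 9 genes of the mesenchyme, 12 of the urothelium and 8 of smooth muscle passed the filter described below. Lmod1 of smooth muscle did not. Myh11 of smooth muscle and Upk2 of the urothelium passed but were dim, with processed signals of 7.61 to 14.4 and 10.1 to 21.7. The median ratios of the members were -0.0014 on replicate 1 and -0.040 on replicate 2. Each marker list of a cell type, those of the ureter included, had a median larger in size than both on at least 1 array. The further S-phase genes described below (-0.051 and 0.047) and the other cyclins, kinases and E2F factors (-0.064 on replicate 1) did so too. The further mitosis genes (0.00082 and 0.026) and the inhibitors and brakes (-0.0068 and -0.0046) did not. All 12 skeletal muscle genes tested had a positive ratio in the male pair and a negative one in the female pair (summed signals 13581 in Rbpj-cKO and 8057 in control, then 6851 in Rbpj-cKO and 15808 in control), while Myf5 was not well above background. Of 12 erythroid genes, 9 did the same, and of 12 neural genes, 11 were higher in Rbpj-cKO on both arrays (summed signals 67393 in Rbpj-cKO and 40527 in control, then 38086 in Rbpj-cKO and 29660 in control). Of 10 macrophage genes, 5 were higher on both. Of all 20495 genes tested, 7021 were positive in the male pair and negative in the female pair, and 16.1% were higher on both. The 5 mesothelium genes had the highest median of these lists on replicate 1, at 0.81, and 0.070 on replicate 2. The medians were 0.12 and -0.068 for endothelium, -0.081 and 0.14 for nephron, and 0.031 and -0.22 for gonad and adrenal genes. The part of these other cells in the values of the members was not tested.

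The cell cycle genes were measured well above background in ureters of both genotypes, and none was called changed in Rbpj-cKO. Every one of the 35 tested members was well above background on all 4 spots of every channel, with processed signals between 18.9 (Aurkb) and 19566 (Mcm6). No member reached a 1.5-fold difference on either array. Of all genes, 3.84% did so on at least 1 array. The offset of 50 used in the processing draws the ratios of dim probes, such as that of Aurkb, towards 0. With the scanner's processed signals the highest mean log2 ratio of a member was 0.11, and with the ratios used here it was 0.072. The widest ratios on 1 array were 0.762-fold for Mcm6 on replicate 1 and 1.29-fold for Cdc6 on replicate 2. The only untested member was Ccne2, a cyclin E. Its single probe gave signals of 5.24 in Rbpj-cKO and 8.99 in control on replicate 1, and of 7.97 in Rbpj-cKO and 5.74 in control on replicate 2, with no channel well above background on more than 1 of 4 spots.

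The limma test of the mean log2 ratio against 0 called 0 of 35 members at an adjusted p under 0.05, against 0% of the 20495 genes. At an unadjusted p under 0.05 it also took 0 of 35 members, against 1.82% of all genes (372). The lowest unadjusted p of a member was 0.442 (Ccne1, limma), and the adjusted p of every member was 0.99998. The mean log2 ratios of the members lay between -0.11 (Ccne1, 0.927-fold) and 0.072 (Ccnb1, 1.05-fold). They were within 0.1 of 0 for 34 of 35 members, against 76.7% of all genes. The 95% interval of every member, from the same limma fit and not adjusted for the number of genes, lay within 1.5-fold either way. The lowest bound was -0.50 (0.709-fold, Mcm6) and the highest 0.46 (1.37-fold, Pcna). These bounds are not the smallest change that the test could call, since Rbpj, with a mean log2 ratio of -0.88, was not called either. In whole ureters, a change in the number of dividing cells and a change in RNA per dividing cell cannot be told apart.

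**Figure D1:**
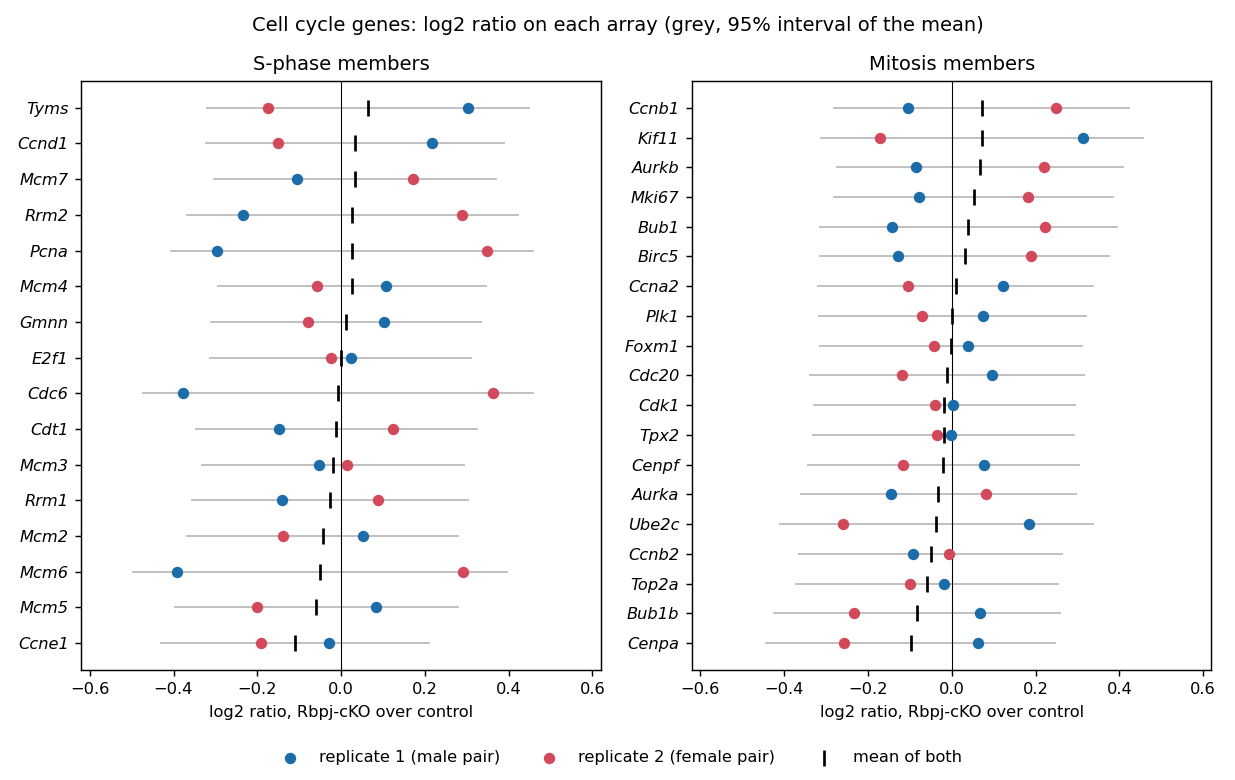
The log2 ratio of Rbpj-cKO over control of each tested member on replicate 1 (blue, male pair) and replicate 2 (red, female pair), with the mean of both (black tick) and its unadjusted 95% interval from limma (grey), for 16 S-phase members (left) and 19 mitosis members (right). Blue and red lie on opposite sides of 0 for 31 of 35 members, while every mean lies between -0.11 and 0.072.

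The members differed from 0 on single arrays mostly in opposite directions. A total of 31 of 35 members (88.6%) had opposite signs on the arrays, against 69.2% of all genes. In 17 of them the male pair gave the positive ratio and the female pair the negative one, and in 14 the female pair gave the positive one. No member was higher in Rbpj-cKO on both arrays, against 16.1% of all genes, and 4 members were lower on both, against 14.7% of all genes. Across the members the SD of the mean ratio was 0.047, against 0.129 across all genes. The SD of the signed distance of an array's ratio from that mean was 0.168 across members and 0.185 across all genes. The members thus spread less than all genes in the mean ratio of Rbpj-cKO over control. The further cell cycle lists described below spread more than the members, with SDs of the mean ratio between 0.072 and 0.108. The spread of the members around their mean ratios was close to that of all genes. The dyes were exchanged, so a red over green difference common to both arrays falls in the distance from the mean. The part of dye in that distance was not tested.

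**Figure D2:**
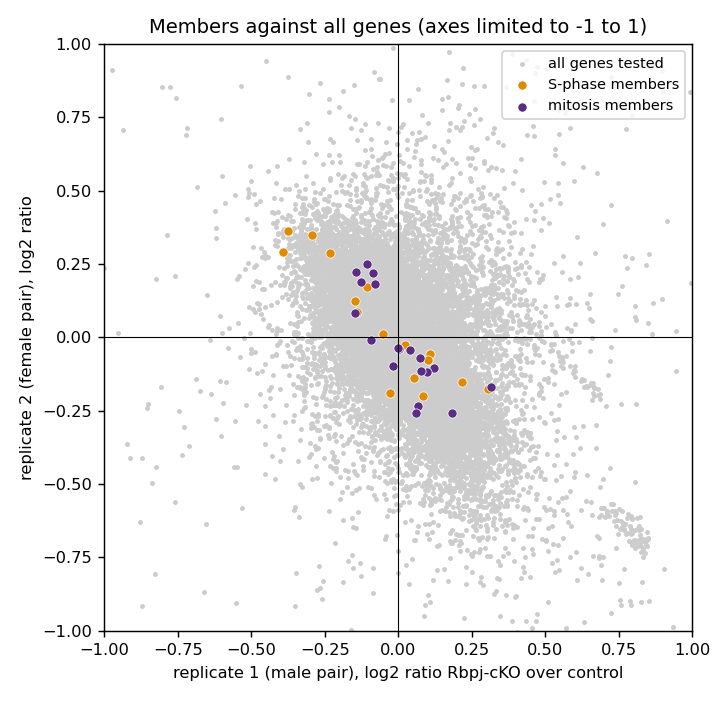
The log2 ratio of Rbpj-cKO over control on replicate 1 (horizontal axis) against replicate 2 (vertical axis) for all 20495 genes tested (grey), the S-phase members (orange) and the mitosis members (purple), with both axes limited to -1 to 1. The members lie along the falling diagonal, with 31 of 35 in the upper left and lower right parts of the plot and none in the upper right.

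The 4 members lower on both arrays were small differences. Ccne1, the cyclin E that drives entry into S phase, had a processed signal of 4409 in Rbpj-cKO and 4493 in control on replicate 1, and of 3668 in Rbpj-cKO and 4156 in control on replicate 2. Its log2 ratios were -0.028 and -0.19, with a mean of -0.11 ± 0.12 (SD, n = 2). The spread between the arrays was as large as the mean, and a second, dimmer probe of Ccne1 gave -0.43 and 0.050.

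Top2a, the topoisomerase that untangles sister chromatids, had a processed signal of 1896 in Rbpj-cKO and 1939 in control on replicate 1, and of 1756 in Rbpj-cKO and 1845 in control on replicate 2. Its mean log2 ratio was -0.059 ± 0.057 (SD, n = 2). Ccnb2, a cyclin of Cdk1, had 7124 in Rbpj-cKO and 7555 in control on replicate 1, and 6602 in Rbpj-cKO and 6669.8 in control on replicate 2, a mean log2 ratio of -0.050 ± 0.061 (SD, n = 2). Both genes carry 2 copies of TTTGAA in the promoters printed above. Tpx2, which activates Aurora A at the spindle, had 2811 in Rbpj-cKO and 2822 in control on replicate 1, and 2447 in Rbpj-cKO and 2496 in control on replicate 2, a mean log2 ratio of -0.019 ± 0.024 (SD, n = 2). At the brightest probe of each of these 4 genes the Rbpj-cKO signal was below the control signal on both arrays. A dimmer probe of Tpx2 gave log2 ratios of 0.11 and -0.16. When the arrays were centred on their median in place of loess, only 1 member was lower on both and 4 were higher on both.

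**Figure D3:**
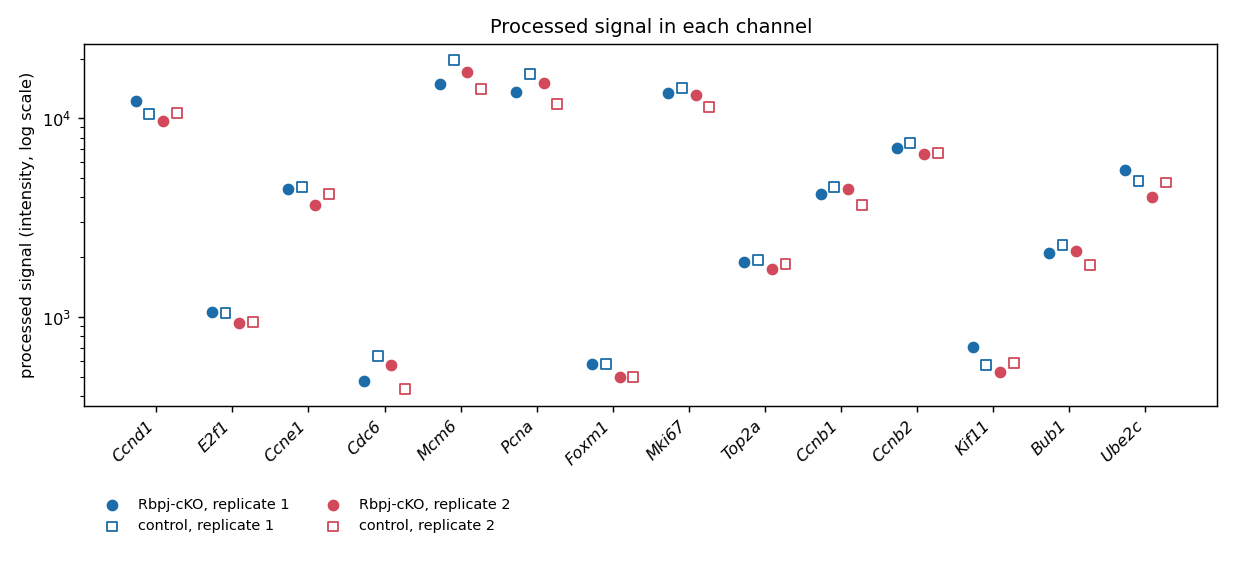
The processed signal (log axis) of 14 members in the Rbpj-cKO channel (filled circles) and the control channel (open squares) of replicate 1 (blue) and replicate 2 (red), S-phase members first. For Cdc6, Mcm6 and Pcna the control square is above the Rbpj-cKO circle on replicate 1 and below it on replicate 2, and for Kif11 and Ube2c the order is the reverse. Levels of different genes cannot be compared, since each probe has its own response.

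Among the S-phase members, Cdc6, Mcm6 and Pcna differed most between the arrays. Cdc6, which loads the MCM helicase onto origins, had a processed signal of 478 in Rbpj-cKO and 638 in control on replicate 1, and of 578 in Rbpj-cKO and 435 in control on replicate 2. Its log2 ratios were -0.38 and 0.36, with a mean of -0.0071 ± 0.52 (SD, n = 2). A second probe of Cdc6, with signals of 391 to 452, gave a smaller difference between the arrays, with log2 ratios of -0.11 and 0.14. Mcm6, a subunit of that helicase, had 14807 in Rbpj-cKO and 19566 in control on replicate 1, and 17208 in Rbpj-cKO and 14042 in control on replicate 2. Its log2 ratios were -0.39 and 0.29. Pcna, the sliding clamp of the DNA polymerases, had 13623 in Rbpj-cKO and 16698 in control on replicate 1, and 15082 in Rbpj-cKO and 11864 in control on replicate 2, with log2 ratios of -0.30 and 0.35. All 3 were lower in the male Rbpj-cKO channel than in the male control and higher in the female Rbpj-cKO channel than in the female control. Rbpj-cKO was red in the male pair and green in the female pair, so the green channel was the higher one on both arrays. Sex and dye cannot be told apart here. In the promoters printed above, Cdc6 carries TTCCCGC and Mcm6 carries TTGGCGC at 2 places.

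The 6 subunits of the MCM helicase did not share a direction on replicate 1. Mcm3, Mcm6 and Mcm7 were below 0 there, at -0.053, -0.39 and -0.11, and Mcm2, Mcm4 and Mcm5 above it, at 0.052, 0.11 and 0.083. On replicate 2 each of the 6 had the opposite sign, and their means lay between -0.059 (Mcm5) and 0.033 (Mcm7). The enzymes of deoxynucleotide synthesis were split likewise. Rrm1 and Rrm2, the large and the small subunit of ribonucleotide reductase, had log2 ratios of -0.14 and -0.23 on replicate 1 and of 0.087 and 0.29 on replicate 2, while Tyms, thymidylate synthase, had 0.30 and -0.18. Cdt1, the licensing factor, had -0.15 and 0.12, and Gmnn, its inhibitor geminin, had 0.10 and -0.078.

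Of the members that act in G1 beside Ccne1, Ccnd1 differed between the arrays and E2f1 was close to 0 on both. Ccnd1, cyclin D1, the link between growth signals and the cell cycle, had a processed signal of 12238 in Rbpj-cKO and 10566 in control on replicate 1, and of 9672 in Rbpj-cKO and 10684 in control on replicate 2. Its log2 ratios were 0.22 and -0.15, with a mean of 0.033 ± 0.26 (SD, n = 2). E2f1, an activator of S-phase genes, had 1058 in Rbpj-cKO and 1049 in control on replicate 1, and 938 in Rbpj-cKO and 947 in control on replicate 2. Its mean log2 ratio was -0.0011 ± 0.034 (SD, n = 2), with a 95% interval from limma of -0.31 to 0.31. E2f1 thus differed less between the arrays than Cdc6, Mcm6 and Pcna did.

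Among the mitosis members, Kif11, Ube2c and Bub1 differed most between the arrays. Kif11, the motor that pushes the spindle poles apart, had a processed signal of 709 in Rbpj-cKO and 573 in control on replicate 1, and of 529 in Rbpj-cKO and 587 in control on replicate 2, with log2 ratios of 0.31 and -0.17. Ube2c, the ubiquitin-conjugating enzyme of the anaphase-promoting complex, had 5469.7 in Rbpj-cKO and 4827.5 in control on replicate 1, and 4041 in Rbpj-cKO and 4755.5 in control on replicate 2, with log2 ratios of 0.18 and -0.26. A second probe of Ube2c of about the same signal (4227 to 5118) gave 0.0053 and -0.066, so the difference between the arrays rests on the probe taken. At their brightest probes, both genes had a positive ratio in the male pair and a negative one in the female pair. The red channel was thus the higher one on both arrays. Bub1, a kinase of the spindle checkpoint, had 2094 in Rbpj-cKO and 2317 in control on replicate 1, and 2148 in Rbpj-cKO and 1831 in control on replicate 2, with log2 ratios of -0.14 and 0.22. Bub1b, its partner in the checkpoint, ran the other way, at 0.066 and -0.23.

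Mki67, the proliferation marker Ki-67, had a processed signal of 13389 in Rbpj-cKO and 14198 in control on replicate 1, and of 13038 in Rbpj-cKO and 11430 in control on replicate 2. Its log2 ratios were -0.078 and 0.18, with a mean of 0.052 ± 0.18 (SD, n = 2) and a 95% interval from limma of -0.28 to 0.39. Ccnb1, cyclin B1, which activates Cdk1 for entry into mitosis, had 4157.5 in Rbpj-cKO and 4496 in control on replicate 1, and 4391 in Rbpj-cKO and 3658 in control on replicate 2, a mean log2 ratio of 0.072 ± 0.25 (SD, n = 2). Foxm1, the transcription factor of G2 genes, had 584 in Rbpj-cKO and 579 in control on replicate 1, and 499.7 in both channels on replicate 2, a mean log2 ratio of -0.0022 ± 0.057 (SD, n = 2). In none of the 3 was the mean larger than the spread between the arrays.

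The remaining mitosis members also had opposite signs on the arrays. Cdk1, the kinase of mitosis, had log2 ratios of 0.0032 and -0.040, and Ccna2, cyclin A2, had 0.12 and -0.10. Of the kinases of mitosis, Aurka had -0.15 and 0.082, Aurkb had -0.086 and 0.22, and Plk1 had 0.073 and -0.071. Birc5, survivin of the chromosomal passenger complex, had -0.13 and 0.19, and Cdc20, an activator of the anaphase-promoting complex, had 0.097 and -0.12. Of the centromere and kinetochore proteins, Cenpa had 0.062 and -0.26 and Cenpf had 0.076 and -0.12.

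The S-phase and mitosis members were compared through their medians, as a description with no test. On replicate 1 the median log2 ratio was -0.040 for the 16 S-phase members and 0.0032 for the 19 mitosis members, a difference of -0.044. On replicate 2 it was -0.0059 for S-phase and -0.043 for mitosis members, a difference of 0.037. The difference between the groups thus turned its sign between the arrays, and its mean was -0.0034 ± 0.057 (SD, n = 2). Without Ccnd1, Gmnn, Ccna2 and Mki67, whose expression or role spans phases, it was -0.083 and 0.093. All genes had medians of 0.0012 and 0.0046. Opposite signs on the arrays were seen in 15 of 16 S-phase and 16 of 19 mitosis members, against 69.2% of all genes.

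Different probes of a member did not always give the same sign. Of the 11 members with more than 1 probe past the filter, Birc5, Cdc6, Cdk1, Mcm3 and Ube2c had all probes of 1 sign on each array. Ccnb1, Ccne1, Foxm1, Gmnn, Mki67 and Tpx2 did not. The probes of Ccnb1 and Mki67 are shown because they differ within 1 gene, each by the first 30 bases of its 60, with coordinates on build mm9 as in the array's own annotation. Capitals mark nothing in these.
Ccnb1 brightest probe, chr13:101548722-101548781, minus strand: gccacctggaaaagaatcctgtctcatttg
Ccnb1 dimmer probe of the middle position, chr13:101551224-101551283, minus strand: tatgaggagatgtaccctccagaaataggt
Ccnb1 dimmest probe, chr13:101553449-101553508, minus strand: tgagtgatgtagacgcagatgatggagctg
Mki67 brighter probe, chr7:142881591-142881650, minus strand: atactactgctactgcctgagtttaaggaa
Mki67 dimmer probe, chr7:142884764-142884823, minus strand: cagtgaacctaagccaagggtaactcgtgg

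The brightest probe of Ccnb1 gave log2 ratios of -0.10 and 0.25, while the 2 dimmer ones gave 0.082 and -0.24 and 0.088 and -0.19. The brighter probe of Mki67 gave -0.078 and 0.18, and the other gave 0.032 and -0.071. For both genes the sign on each array therefore depended on the probe. The second probe of Gmnn lies on the plus strand and the first on the minus strand, so they need not report the same transcript. The share of A and T was 65% in the brightest Ccnb1 probe and 55% in the other Ccnb1 probes, but 56.7% and 55% in the Mki67 probes, which differed in sign as well. Across the 49 member probes past the filter, the share of A and T ran with the ratio on replicate 1 minus that on replicate 2 at Pearson r = -0.246, and across all probes past the filter at r = -0.253. These are descriptions across probes on the same arrays, and the part of base composition in the members' values was not tested.

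**Figure D4:**
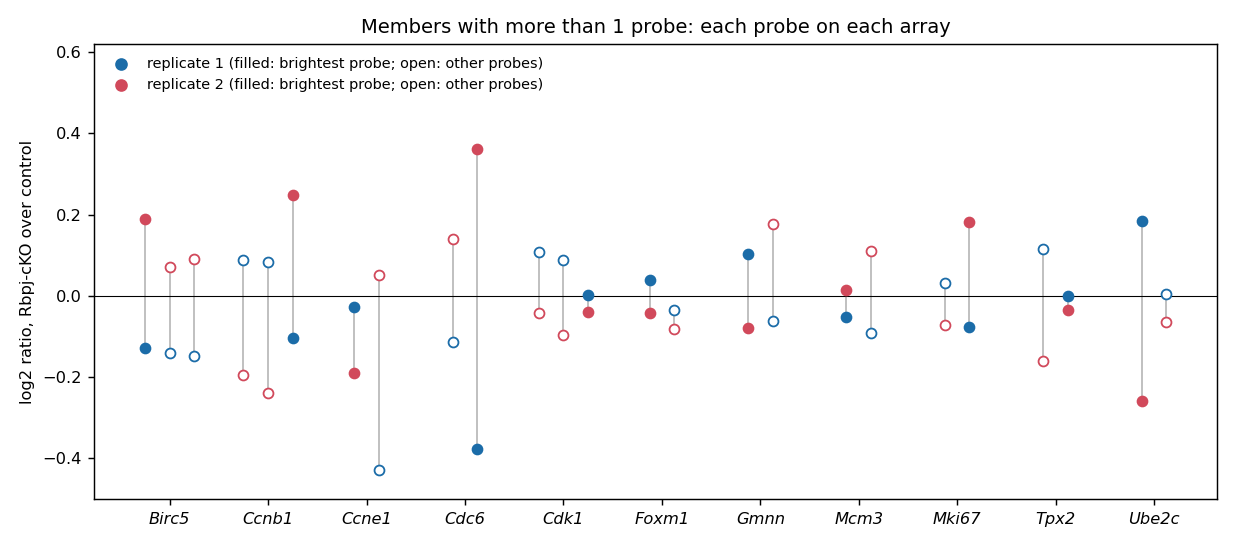
The log2 ratio of Rbpj-cKO over control at each probe of the 11 members with more than 1 probe past the filter, on replicate 1 (blue) and replicate 2 (red), with the brightest probe filled and the others open. In Ccnb1, Gmnn and Mki67 the colours change sides between probes, while in Birc5 and Cdc6 they do not.

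Other genes of the same processes, taken from lists beyond the members, gave no called change. Of 50 further genes of S phase, 9 were higher in Rbpj-cKO on both arrays, 7 lower on both and 34 of opposite signs, with medians of -0.051 and 0.047. Of 60 further genes of mitosis, 15 were higher on both, 7 lower on both and 38 opposite, with medians of 0.00082 and 0.026. Of 17 other cyclins, cyclin-dependent kinases and E2F factors, 2 were higher on both and 4 lower on both. Of 17 tested inhibitors and brakes of the cell cycle, 1 was higher on both and 2 lower on both, and Cdkn2a was not well above background. These counts stand beside 16.1% and 14.7% of all genes. Opposite signs were seen in 68.0% of these S-phase genes and 63.3% of these mitosis genes, against 69.2% of all genes. They were seen in 64.7% of the cyclin, kinase and E2F list and 82.4% of the inhibitors and brakes. Mean ratios within 0.1 of 0 made up 88.0%, 76.7%, 64.7% and 76.5% of these lists in that order, against 76.7% of all genes. The share among the members was 97.1%.

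Among these further genes, the smallest unadjusted limma p with 1 sign on both arrays was 0.0678, for Lmnb1, the nuclear lamin B1. Lmnb1 had a processed signal of 9132 in Rbpj-cKO and 6904 in control on replicate 1, and of 8393 in Rbpj-cKO and 7346 in control on replicate 2, a mean log2 ratio of 0.30 ± 0.14 (SD, n = 2). Kif15, a spindle motor with a role like that of Kif11, had log2 ratios of 0.074 and 0.40, and Ttk, a checkpoint kinase, had -0.22 and -0.11. Cdk2, the partner of the E cyclins, had -0.17 and -0.35. E2f5 had -0.059 and -0.21, and Cdk6, a partner of the D cyclins, had 0.25 and 0.0090. Cdkn2b, the inhibitor p15, had -0.0068 and -0.57 at a dim probe. Of the antiproliferative genes, Tob1 had -0.12 and -0.041, and Btg1 had 0.015 and 0.019. Of the S-phase list, Tipin of the replication fork had 0.087 and 0.25, Cdc45 of the replicative helicase had -0.053 and -0.26, and the clamp loader subunit Rfc3 had -0.049 and -0.21. The adjusted p of each of these 12 genes was 0.99998 (limma).

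**Figure D5:**
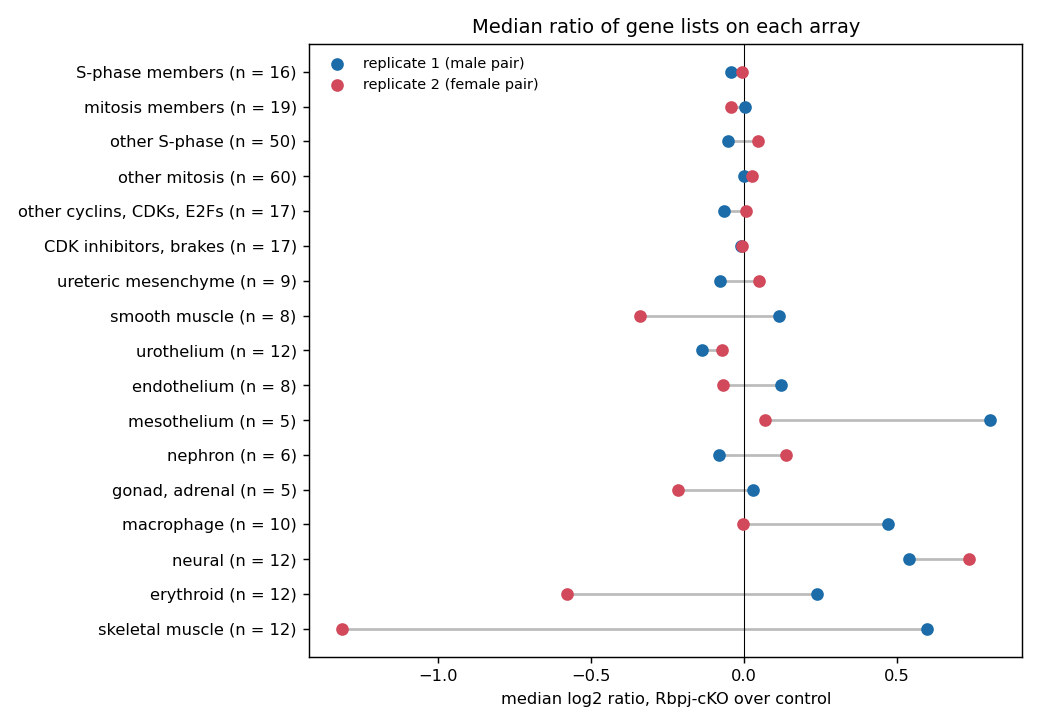
The median log2 ratio of Rbpj-cKO over control on replicate 1 (blue) and replicate 2 (red) of the members, the further cell cycle lists and marker lists of cell types, with the number of genes tested. The lists of cell cycle genes lie within 0.1 of 0 on both arrays, while skeletal muscle lies at 0.60 and -1.31, erythroid at 0.24 and -0.58, neural at 0.54 and 0.74 and mesothelium at 0.81 and 0.070.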

How the data were processed

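RNA of Rbpj-cKO and control ureters was read on 2 two-colour arrays that share 1 slide and 1 scan. Mean and background intensity per spot, the processed intensity and the log10 ratio of red over green were deposited, with other columns holding 0 or 1 flags, all per the file headers. The submitters' processing notes name Agilent Feature Extraction 10.7.3.1. The authors also deposited a series table, a score read here as signed fold change of Rbpj-cKO over control, which served as an alternative only (method not given in the sources used here).

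From the mean and background intensities, normexp (offset 50) and loess within each array (control spots at weight 0) gave log2 ratios in limma 3.58.1 under R 4.3.3. Spots flagged as outliers (3.57% and 3.90%) were left out, no spot was saturated, the 4 spots of a probe were averaged, and replicate 2 was multiplied by -1. Channel signals in the text are the processed intensities, so small ratios can differ in sign from them. Spots well above background made up 69.3% (Rbpj-cKO) and 70.1% (control) on replicate 1, and 68.1% and 67.7% on replicate 2, and the number of arrays limits the precision.

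On each array, a kept probe had at least 2 of 4 spots well above background in the Rbpj-cKO or the control channel (26980 probes). The brightest probe stood for each of 20495 genes. The mean was tested against 0 with lmFit and eBayes (two-sided, Benjamini-Hochberg over all genes). The fit was also run on simulated data, as a check of the estimated ratios of bright probes and not of calls or intervals. The members and lists were chosen with earlier results of these data known. Genes given with all channels were the members of 1 sign on both arrays, the 3 S-phase and the 3 mitosis members with the largest difference between arrays, and Mki67, Pcna, Ccnd1, Ccnb1, E2f1 and Foxm1. From each further list, up to 3 genes of 1 sign with the smallest p were named. Probe coordinates are on mm9 per the file headers, promoters on GRCm38.p6. The position of probes in exons or UTRs was not analysed here.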

Additional observations from a re-analysis of the deposited data

Results flagged for a closer look

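For 31 of 35 members the male pair and the female pair gave ratios of opposite sign, against 69.2% of all genes. That the ratio differs between the pairs was not tested, since there is 1 array of each. The dyes were exchanged between the pairs, so sex and dye cannot be told apart.

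The median log2 ratio of 12 skeletal muscle genes was 0.60 in the male pair and -1.31 in the female pair, a difference of 1.91, and the ratio of every gene was above 0 in the first and below 0 in the second. None of the 12 genes passed the test of the mean (limma, adjusted p 0.99998), and the difference between the pairs was not tested. Dye orientation differed between the pairs as well. Of all 20495 genes tested, 7021 had this order of signs.

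Ddx3y, a Y-linked gene that no comparison of the members uses, had a processed signal of 123 in female Rbpj-cKO RNA, against 2.12 in female control RNA. Eif2s3y, also Y-linked, had 218 in female Rbpj-cKO RNA, against 13.6 in female control RNA.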

How the results depend on the processing

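No member passed an adjusted p under 0.05 (limma) in any alternative with a test, and the limit is the number of arrays: without replicate 1 or 2 a single array is left, which gives values with no test and no count of shared signs. The count of members higher in Rbpj-cKO on both arrays, 0, became 4 with median centring, and 1 with base composition removed, with the mean of all probes and with the deposited series table. The count lower on both, 4, became 1 with median centring, and 2 without the members whose probes differed in sign, an alternative chosen after seeing the data. Over all genes, the calls at an adjusted p under 0.05, 0 at first, became 2 with the scanner's processed signals (9430037G07Rik and Gm19410) and 5 with an intensity trend and robust moderation (these and D030062O11Rik, Mdfi and Ren2), genes named after their values were seen. The median of the S-phase members, -0.0041, ranged from -0.040 to -0.0059 with 1 array left out, and turned positive with the mean of all probes (0.00081) and the series table (0.010). The median of the mitosis members, -0.011, was 0.0070 with the series table and 0.0032 without replicate 2. The median of the mean ratios of S-phase members minus that of mitosis members, 0.0071, was -0.014 with base composition removed and -0.044 without replicate 2. The value of -0.0034 given in the Results is another measure, the mean of the differences found on each array. The median of the inhibitors and brakes, 0.0049, was 0.0018 with processed signals, -0.0073 with median centring, -0.0095 with base composition removed, -0.0016 with no filter, -0.0080 with the mean of all probes, 0.0093 with the series table, and -0.0068 to -0.0046 with 1 array left out. The cause of these changes was not tested. The test of ratios within each array is itself the paired comparison of the genotypes, so no further block was fitted.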
